A study of Mus musculus with 8 samples.

Results

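The 9 genes described here encode receptors and adaptors of mitophagy, together with kinases that switch them on. They were chosen by symbol (Pink1, Bnip3, Bnip3l, Fundc1, Optn, Sqstm1, Tbk1, Phb2 and Map1lc3b) and not by a cut on their values, although earlier results of these data were known. All 9 were found among the 18877 genes of the expression table. RNA-seq had been carried out on activated muscle stem cells (ASCs), which are the resident stem cells of skeletal muscle after they leave quiescence, in 4 wild-type and 4 mfn2-/- libraries. Mice of both groups carried the Pax7-Cre(ERT2) driver and the mito-Dendra2 allele, received tamoxifen (75 mg/kg daily, 5 doses) and were injured in the tibialis anterior with 1.2% BaCl2, and ASCs were sorted 2 days post injury as CD34-, Dendra2+ and DAPI- cells. In the mfn2-/- group the floxed Mfn2 gene, which encodes an outer membrane protein for mitochondrial fusion, was deleted through the same driver. By design, both recombination events were to be limited to cells with Pax7 promoter activity, which was not tested here. Strain, age and whether each library came from a separate mouse are not given in the labels, so p-values measure the spread between these libraries, which may in part be technical.

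Mitophagy removes damaged or surplus mitochondria by enclosing them in an autophagosome that then fuses with a lysosome. In the ubiquitin-dependent route, the kinase PINK1 accumulates on depolarized mitochondria and phosphorylates ubiquitin, and the ubiquitin chains are read by adaptors such as optineurin (Optn) and p62 (Sqstm1), which the kinase TBK1 phosphorylates. In the receptor route, proteins of the mitochondrial membranes (BNIP3, NIX encoded by Bnip3l, FUNDC1 and prohibitin 2 encoded by Phb2) bind LC3 directly. LC3B (Map1lc3b), a lipid-conjugated protein of the autophagosome membrane, is where the routes meet. Mitofusin 2 is itself a substrate of PINK1, and transcription of Bnip3 and Bnip3l is known to respond to hypoxia-inducible factor while that of Sqstm1 is known to respond to NRF2.

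The deposited values were normalized read counts, called normalized reads here, and changes were differences of log2(normalized reads + 1), mfn2-/- minus wild-type. By limma with Benjamini-Hochberg adjustment over 11754 genes, 3 of the 9 genes were higher in mfn2-/- ASCs at an adjusted p under 0.05, and 0 were lower. Across all genes tested, 10.4% passed in either direction and 3.99% passed as higher. The 3 genes were Sqstm1, Tbk1 and Map1lc3b, which encode the adaptor p62, the kinase that phosphorylates adaptors, and LC3B. PINK1, optineurin and all 4 membrane receptors had transcripts that did not pass (limma adjusted p 0.545 to 0.954). The median log2 change of the 9 genes was 0.13, with 5 changes above and 4 below 0, beside a median of -0.16 over all genes tested. The same 3 genes were those with no overlap between the groups, which 19.5% of all genes tested also showed (7.36% with the mfn2-/- libraries above). All 9 passed the filter on low values, with Bnip3 as the lowest at a mean of 42.1 normalized reads over the 8 libraries.

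The depth was 1880464 to 7508215 reads assigned to genes in wild-type and 2269009 to 6199866 in mfn2-/- libraries, and 1 read was worth 0.534 to 2.27 normalized reads. The targeted gene, Mfn2, stood at 229 ± 19.98 normalized reads in wild-type libraries against 126 ± 31.4 (SD, n = 4 per group), with no overlap (exact permutation p = 0.0286, the smallest that 4 against 4 libraries can give) and a limma adjusted p of 0.0848. Reads from Y-linked genes were present in 4 libraries (replicates 3 and 4 of the wild-type and 1 and 2 of the mfn2-/- group) and at 0 in the other 4, so changes were also computed within each kind of library (2 per group). The labelled cell type was checked against its markers. A list of 10 muscle stem cell markers took 0.306% ± 0.0693 of all normalized reads in the wild-type group and 0.775% ± 0.163 in the mfn2-/- group (SD, n = 4 each), with 3 of the 10 genes higher and 1 lower by the limma test. A list of 14 fibroadipogenic and fibroblast markers took 5.58% ± 0.856 and 0.211% ± 0.0555 (summed level 201199 to 260527 against 6377 to 10659 normalized reads), 12 of the 14 genes were lower in mfn2-/- by the limma test, and 0 of the 14 were at 0 in all libraries of a group. A list of 10 tenocyte markers fell alike, with 10 of 10 lower (41264 to 64847 against 350.0 to 455 normalized reads). Summed myofiber markers were higher in mfn2-/- libraries (2161 to 3625 against 3833 to 5437 normalized reads, 1 of 12 genes called) and summed erythroid markers were lower (34.2 to 66.1 against 0 to 29.2, 0 of 2 genes tested called), each with an exact permutation p of 0.0286. These markers moved with genotype beside every result given here, and in bulk RNA fewer cells of a type and less RNA per cell cannot be told apart. Macrophage and leukocyte markers, at 54.0 to 155 and 109 to 172 normalized reads in sum, were near 0 in both groups, with C1qb at 0 in all mfn2-/- libraries and Emr1 and Fcer1g at 0 in all wild-type libraries. The library mfn2-/- replicate 4 stood apart, with reads in 9646 genes, beside 12613 to 15270 in the other 7 libraries and 12613 in the shallower wild-type replicate 1, and with the lowest weight of the 8 in the weighted fit (0.167). It held the highest Map1lc3b value and the 0 of Fundc1. The parts of the marker shift and of this library in the results below were not tested.

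**Figure D1:**
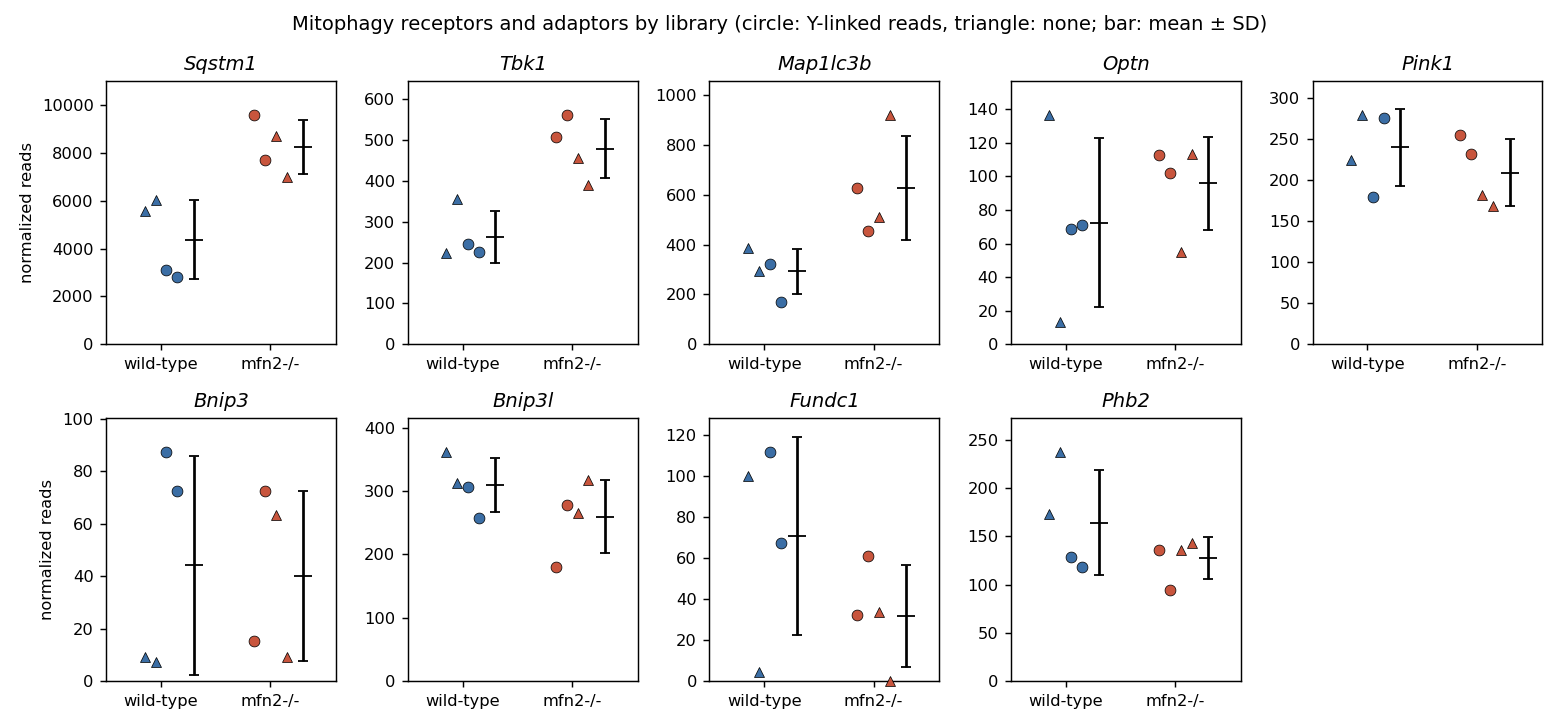
Normalized reads (vertical axis, linear) of the 9 mitophagy genes in each wild-type (blue) and mfn2-/- (red) library, with circles for libraries that held reads from Y-linked genes, triangles for those with 0, and bars for the mean ± SD of 4 libraries. For Sqstm1, Tbk1 and Map1lc3b every mfn2-/- library sits above every wild-type library, while the groups overlap for the other 6 genes.

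Sqstm1, the most abundant of the 9 transcripts, was 1.98-fold higher in mfn2-/- ASCs. It measured 5563, 6030, 3120 and 2812 normalized reads in wild-type replicates 1 to 4. In mfn2-/- replicates 1 to 4 it measured 9582, 7727, 8719 and 7018 normalized reads. All mfn2-/- libraries were above all wild-type libraries, and the wild-type libraries split into a higher pair (replicates 1 and 2) and a lower pair (replicates 3 and 4). The group means were 4381 ± 1650 and 8262 ± 1123 normalized reads (SD, n = 4 per group). The log2 change was 0.99 (SE 0.26, 95% interval 0.43 to 1.54), with a limma adjusted p of 0.0287 and a two-sided exact permutation p of 0.0286. In the reported fit the size of the rise differed between the kinds of library. It was 1.54 among libraries with Y-linked reads, whose wild-type members form the lower pair, and 0.43 among those with 0, and the difference of -1.10 passed the limma interaction test (adjusted p 0.0324). Among all genes tested 1.47% passed that interaction test, and Sqstm1 was the 1 gene of the 9 that did. The interaction rests on 2 libraries per group and kind, and it was -0.43 with a limma adjusted p of 0.461 after quantile normalization. It also did not pass with no intensity trend (limma adjusted p 0.497) or by edgeR (adjusted p 0.0583). With a pseudocount of 10 it passed (limma adjusted p 0.00983). The rise of Sqstm1 itself lost its call, with adjusted p of 0.101 and 0.0931, when wild-type replicate 3 or 4 was left out, and with 0.0721, 0.054 and 0.0692 without mfn2-/- replicate 1, 2 or 3.

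Tbk1, the kinase that phosphorylates optineurin and p62 on ubiquitin-coated mitochondria, was 1.84-fold higher. Wild-type replicates 1 to 4 gave 223, 357, 246 and 225 normalized reads. The mfn2-/- replicates 1 to 4 gave 508, 561, 457 and 390 normalized reads. The groups did not overlap, although wild-type replicate 2 came close to the lowest mfn2-/- library, replicate 4. The group means, 263 ± 63.5 and 479 ± 72.8, gave a log2 change of 0.88 (SE 0.24, 95% interval 0.36 to 1.40, limma adjusted p 0.0353, exact permutation p 0.0286). The rise was 1.18 among libraries with Y-linked reads and 0.58 among those with 0, a difference that did not pass the interaction test (limma adjusted p 0.598). TBK1 acts in innate immune signaling as well as in mitophagy, and the expression table does not separate these roles. The adjusted p of Tbk1 was between 0.0657 and 0.112 when wild-type replicate 1, 3 or 4 or mfn2-/- replicate 1, 2 or 3 was left out.

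Map1lc3b, which encodes the LC3B protein that receptors and adaptors bind, was 2.15-fold higher. In wild-type replicates 1 to 4 it gave 384, 292, 320 and 170 normalized reads. In mfn2-/- replicates 1 to 4 it gave 627, 453, 508 and 918 normalized reads. The groups were separate, with wild-type replicate 4 as the lowest and mfn2-/- replicate 4, the library with the fewest genes detected, as the highest value. Without mfn2-/- replicate 4 the log2 change was 0.90 (limma adjusted p 0.0665). The means were 292 ± 89.9 and 626 ± 207, with a log2 change of 1.11 (SE 0.30, 95% interval 0.46 to 1.75, limma adjusted p 0.0325, exact permutation p 0.0286). Its log2 change was 1.19 with and 1.02 without Y-linked reads, and the difference did not pass (interaction adjusted p 0.921 by limma). Its adjusted p lay between 0.0521 and 0.0921 when wild-type replicate 2, 3 or 4 or mfn2-/- replicate 1, 3 or 4 was left out. The exons of Map1lc3b overlap those of Zcchc14 on the opposite strand by 58 of their 7517 joined bases in the GENCODE M21 annotation. Zcchc14 also rose, from 649 ± 84.7 to 1202 ± 239 normalized reads (log2 change 0.88, limma adjusted p 0.0125), and whether reads were counted by strand is not given in the sources used here. Sqstm1 shares 580 exonic bases with Mrnip on the opposite strand, but Mrnip was at 0 in 7 libraries and had 1 read in mfn2-/- replicate 3.

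The ATG8 family, to which LC3B belongs, and the ubiquitin-binding adaptors were also summed as families. LC3 and GABARAP transcripts summed to 1415 ± 287 normalized reads per wild-type library and to 2321 ± 318 per mfn2-/- library. Map1lc3b made up 20.5% ± 4.59 of that sum in wild-type and 26.5% ± 4.92 in mfn2-/- ASCs, and Gabarapl1, the most abundant relative, made up 42.8% ± 3.18 and 43.0% ± 10.7. Among the ubiquitin-binding adaptors (Sqstm1, Optn, Nbr1, Tax1bp1 and Calcoco1), Sqstm1 accounted for 62.1% ± 8.47 of the wild-type reads and for 70.7% ± 2.95 of the mfn2-/- reads. Optn was a minor transcript of that family at 1.11% ± 0.665 and 0.834% ± 0.269. These shares are of normalized reads, not of molecules, and their differences were not tested.

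Optn encodes optineurin, an adaptor that brings autophagosome proteins to ubiquitin-coated mitochondria. It gave 136, 13.5, 68.6 and 71.1 normalized reads in wild-type replicates 1 to 4 and 113, 102, 55.3 and 114 in mfn2-/- replicates 1 to 4. The wild-type values spanned the whole range of the mfn2-/- values, and wild-type replicate 2 stood lowest. Without that library the log2 change given below was 0.077, and without wild-type replicate 1 it was 1.16. The means were 72.4 ± 50.3 and 95.9 ± 27.6, with a log2 change of 0.73 and a 95% interval of -0.73 to 2.19 (limma adjusted p 0.545). An increase of Optn as large as that of Sqstm1 lies inside this interval, so the adaptors were not shown to differ.

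Pink1, whose product starts the ubiquitin-dependent route, did not pass the test. It gave 225, 279, 180 and 276 normalized reads in wild-type replicates 1 to 4 and 255, 231, 182 and 169 in mfn2-/- replicates 1 to 4. The groups overlapped, with means of 240 ± 47.2 and 209 ± 40.6. The log2 change was -0.20 (SE 0.28, 95% interval -0.80 to 0.41, limma adjusted p 0.715), so that a doubling, which is a log2 change of 1, lies outside the interval. The sign differed between kinds of library, at 0.12 with Y-linked reads and -0.51 without.

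The membrane receptors gave no call in either direction. Bnip3l, which encodes the receptor NIX that clears mitochondria from maturing red blood cells, was the most abundant of them. It gave 362, 312, 306 and 258 normalized reads in wild-type replicates 1 to 4 and 179, 277, 265 and 317 in mfn2-/- replicates 1 to 4. The groups overlapped, and mfn2-/- replicate 1 was the lowest library. Means were 310 ± 42.4 and 260 ± 57.9, with a log2 change of -0.27 (SE 0.26, 95% interval -0.83 to 0.29, limma adjusted p 0.557), so the interval does not hold a rise of the size seen for Sqstm1, Tbk1 or Map1lc3b. The change was -0.33 with and -0.21 without Y-linked reads. Of the stretches of 50 bases in its exons, 20.8% also occur in the transcript of a processed copy, Bnip3l-ps, and reads from such stretches could have been lost or split.

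Bnip3, the other receptor of the BCL2 family and a transcript used in many settings to read out hypoxia-inducible factor, was weakly expressed. It gave 9.10, 7.26, 87.4 and 72.7 normalized reads in wild-type replicates 1 to 4 and 15.3, 72.7, 63.4 and 9.16 in mfn2-/- replicates 1 to 4. In each group a pair of libraries was near 10 and a pair above 60, and the pairs were not the same kind of library in the groups. Means were 44.1 ± 41.9 and 40.1 ± 32.5, and the log2 change was 0.13 with a 95% interval of -2.22 to 2.49 (limma adjusted p 0.954). It was -1.22 with and 1.49 without Y-linked reads. Hif1a, by comparison, rose from 812 ± 195 to 2887 ± 433 normalized reads (log2 change 1.85, limma adjusted p 7.97e-05). Of the 50-base stretches in the exons of Bnip3, 47.2% also occur in transcripts of other annotated genes, among them an antisense transcript (Gm45507) and copies such as Gm16439 and Gm6532, so its low and uneven counts are uncertain.

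Fundc1, an X-linked gene whose product is an outer membrane receptor in hypoxia, gave 100.1, 4.15, 112 and 67.3 normalized reads in wild-type replicates 1 to 4. In mfn2-/- replicates 1 to 4 it gave 32.0, 60.8, 33.9 and 0 normalized reads. All mfn2-/- libraries were below the wild-type mean, but wild-type replicate 2, at 4.15, lay below 3 of them, and the 0 in mfn2-/- replicate 4 allows up to 5.50 normalized reads (3 reads, counting error only). The means were 70.9 ± 48.3 and 31.7 ± 24.9. The log2 change of -1.45 had a 95% interval of -4.47 to 1.56 (limma adjusted p 0.561), and it became -0.11 without mfn2-/- replicate 4, -2.49 without wild-type replicate 2, and 0.28 when wild-type replicate 1 and mfn2-/- replicate 4, the shallowest library of each group, were left out. Phb2 encodes prohibitin 2, an inner membrane protein that can act as a receptor once the outer membrane has ruptured. It gave 173, 237, 129 and 118 normalized reads in wild-type and 135, 94.8, 136 and 143 in mfn2-/- replicates 1 to 4. The groups overlapped, with mfn2-/- replicate 2 lowest and wild-type replicate 2 highest. Its means were 164 ± 54.2 and 127 ± 21.9, a log2 change of -0.33 (SE 0.35, 95% interval -1.09 to 0.43, limma adjusted p 0.606).

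**Figure D2:**
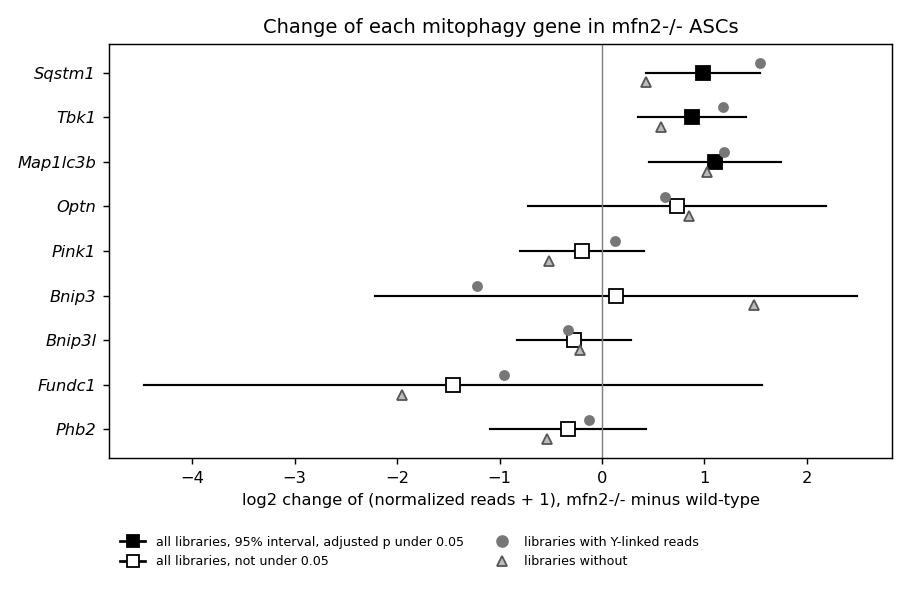
Log2 change (mfn2-/- minus wild-type, horizontal axis) of each mitophagy gene, with squares and lines for the limma value and its 95% interval over all 8 libraries, filled where the adjusted p was under 0.05, and circles and triangles for the change among libraries with and without Y-linked reads. Sqstm1, Tbk1 and Map1lc3b are positive in both kinds of library, and Bnip3 and Fundc1 have the widest intervals.

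Per kilobase of annotated exon, Sqstm1 stood far above the other genes, at 1305 ± 492 normalized reads per kb in wild-type and 2462 ± 335 in mfn2-/- ASCs. In wild-type ASCs it was followed, per kb, by Pink1 (89.8 ± 17.7), Bnip3l (80.2 ± 11.0), Tbk1 (67.2 ± 16.2), Phb2 (44.2 ± 14.6) and Map1lc3b (38.8 ± 12.0). Fundc1 (30.1 ± 20.5), Bnip3 (19.5 ± 18.5) and Optn (19.3 ± 13.4) were the lowest per kb. In this order the mean ± SD of Sqstm1 stood clear of that of Pink1, and those of all later neighbours overlapped. In mfn2-/- ASCs the order per kb below Sqstm1 was Tbk1 (123 ± 18.6), Map1lc3b (83.3 ± 27.6), Pink1 (78.3 ± 15.2), Bnip3l (67.3 ± 15.0), Phb2 (34.2 ± 5.88), Optn (25.5 ± 7.35), Bnip3 (17.7 ± 14.4) and Fundc1 (13.5 ± 10.6). There the mean ± SD did not overlap between Sqstm1 and Tbk1 or between Bnip3l and Phb2, and it overlapped between the other neighbours. Exon lengths were those of GENCODE M21 with the exons of all transcripts joined, which overstates the length of genes with rarely used exons.

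Promoters of the 3 genes that rose are shown beside that of Bnip3, since Hif1a rose in these libraries and Bnip3 is a known gene of hypoxia-inducible factor. Each is the 250 bases before the RefSeq gene start on GRCm38.p6, 5′ to 3′ on the strand of the gene. Capitals mark the hypoxia response cores ACGTG and GCGTG on either strand (CACGT and CACGC when read from the other). They are Sqstm1 (chr11:50210821-50211070, minus strand), Tbk1 (chr10:121586795-121587044, minus strand), Map1lc3b (chr8:121590188-121590437, plus strand) and Bnip3 (chr7:138909507-138909756, minus strand).
Sqstm1: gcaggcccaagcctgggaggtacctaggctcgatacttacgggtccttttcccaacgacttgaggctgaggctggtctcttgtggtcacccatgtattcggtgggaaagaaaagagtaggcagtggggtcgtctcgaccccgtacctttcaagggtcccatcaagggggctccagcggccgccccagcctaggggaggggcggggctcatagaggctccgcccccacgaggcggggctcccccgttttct
Tbk1: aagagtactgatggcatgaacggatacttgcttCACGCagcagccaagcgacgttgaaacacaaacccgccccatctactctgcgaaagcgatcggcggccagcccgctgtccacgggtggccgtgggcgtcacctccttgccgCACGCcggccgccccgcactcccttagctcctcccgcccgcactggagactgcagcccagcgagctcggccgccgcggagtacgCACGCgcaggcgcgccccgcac
Map1lc3b: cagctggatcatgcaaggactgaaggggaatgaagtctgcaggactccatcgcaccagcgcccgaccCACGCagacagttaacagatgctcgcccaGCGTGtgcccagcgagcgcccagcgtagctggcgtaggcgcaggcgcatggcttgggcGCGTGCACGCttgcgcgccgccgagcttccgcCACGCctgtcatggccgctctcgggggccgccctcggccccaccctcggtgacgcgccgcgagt
Bnip3: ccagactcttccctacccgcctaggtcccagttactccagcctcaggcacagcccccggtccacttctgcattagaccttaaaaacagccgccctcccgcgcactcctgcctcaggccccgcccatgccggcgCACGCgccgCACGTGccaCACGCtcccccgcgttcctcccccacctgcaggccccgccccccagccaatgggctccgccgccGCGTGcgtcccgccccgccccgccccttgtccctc
The Sqstm1 window held 0 cores. The Tbk1 window held 3 and the Map1lc3b window 5 matches, all of them GCGTG. The Bnip3 window held 3 GCGTG matches and a palindromic CACGTG, the E-box, which counts as an ACGTG match on each strand at 108 and 107 bases before the start. Of the 8 genes of the group with an entry in the RefSeq table, 6 held a core, beside 38.6% of all 32851 promoter windows searched, and 1 held CACGTG, beside 6.02%. Cores were thus not limited to genes that rose. Pink1, Optn, Phb2 and Bnip3, which did not pass the limma test, each held a core, and Fundc1, which did not pass either, held 0. GGGCGG, the GC box, was in 7 of the 8 windows and in 32.7% of all windows. TGACNNNGC, the core of the antioxidant response element that NRF2 binds, was in 0 of 8 windows and in 10.2% of all windows, and the NF-kB site was in 0 of 8 and in 0.356%. All motifs were searched on both strands, and where a gene had several entries the first was used. The windows of all genes were not matched to those of the group in base content or expression, so these shares do not show an enrichment. A match describes letters in these windows only, and elements that lie further away were not searched.

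The 6 wider lists of genes that surround the group were described next. Of 33 other mitophagy genes tested, 3 were higher and 0 lower in mfn2-/- ASCs (9.09% called, median log2 change -0.01). They were Bcl2l13, an outer membrane receptor related to BCL2 (246 ± 44.3 to 493 ± 186 normalized reads, log2 change 0.95, limma adjusted p 0.0457), Tax1bp1, a ubiquitin-binding adaptor (1276 ± 163 to 2099 ± 291, 0.72, adjusted p 0.0224), and Arih1, a ubiquitin ligase (791 ± 412 to 1531 ± 229, 1.07, adjusted p 0.0326). The groups overlapped for Arih1 and were separate for Bcl2l13 and Tax1bp1. The list also holds Mfn2, the deleted gene, which did not pass (log2 change -0.88, limma adjusted p 0.0848). Mcl1, an abundant member of that list, changed by 0.68 on the log2 scale (limma adjusted p 0.176), by 1.51 with and by -0.16 without Y-linked reads (interaction adjusted p 0.00452). Of 33 autophagosome machinery genes, 1 was higher and 0 lower (3.03%, median 0.18). It was Rb1cc1, a subunit of the complex that starts autophagosome formation (799 ± 95.3 to 1252 ± 186 normalized reads, log2 change 0.64, limma adjusted p 0.0434). Gabarapl1 changed by 0.70 (adjusted p 0.0734). Both lists held calls in 1 direction only. Among all genes tested 10.4% were called in either direction and 3.99% as higher. The shares of the lists count both directions, as the 10.4% does. All 3 calls among the other mitophagy genes were lost with no intensity trend and without wild-type replicate 3 or 4 or mfn2-/- replicate 3, and 1 was left without mfn2-/- replicate 1 or 4. The call of Rb1cc1 was lost without wild-type replicate 2, 3 or 4 or mfn2-/- replicate 1, 2 or 3. It was also lost with no filter on low values, quantile normalization, equal totals outside matrix and structural RNA genes, a replicate block or no intensity trend.

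Among 29 lysosome genes 5 were lower and 0 higher (17.2% called, beside 10.4% of all genes in either direction and 6.36% lower). Their median log2 change was -0.46, while 24 did not pass and 8 had a change above 0. Without wild-type replicate 3 or 4 the count of 5 was 3, and without the shallowest library of each group it was 9. Psap, the precursor of the saposins that activate lipid-degrading enzymes, fell from 1761 ± 141 to 724 ± 21.9 normalized reads (log2 change -1.28, limma adjusted p 0.000284). Gaa, the acid glucosidase that degrades glycogen, fell from 515 ± 34.0 to 168 ± 24.1 (-1.61, adjusted p 0.000654). Hexa (-1.88), Ctsf (-1.56) and Ctsd (-1.16) fell as well, with adjusted p of 0.00629, 0.0188 and 0.0348. Lamp2, an abundant lysosomal membrane gene, changed by 0.39 (adjusted p 0.232). The mfn2-/- libraries with more Sqstm1, Tbk1 and Map1lc3b thus held less of these 5 lysosomal transcripts, and less of the fibroadipogenic and tenocyte markers as well.

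Lists tied to regulators of the group were counted as well. Beside them, 3.99% of all genes tested were called higher, 6.36% lower and 10.4% in either direction. Of 15 NF-kB genes, 8 were higher and 0 lower (53.3%, median log2 change 1.30), among them Nfkb1 (1.95, limma adjusted p 0.00133), Nfkb2 (1.84, adjusted p 0.00124), Nfkbie (2.12, adjusted p 0.00123), Birc3 (1.64, adjusted p 0.00738), Rel (1.55, adjusted p 0.0433) and Relb (1.46, adjusted p 0.0182). Tnfaip3, an inhibitor of the pathway, changed by 0.73 (adjusted p 0.0973). The count of 8 was 4 without wild-type replicate 3 or 4, 5 without mfn2-/- replicate 1 or 2, and 3 with no intensity trend. As for Sqstm1, the size of several of these changes differed between the kinds of library in the reported fit. Other settings of the interaction test were run for Sqstm1 only. Nfkb1 rose by 2.69 among libraries with Y-linked reads and by 1.20 among those with 0, and Birc3 by 2.67 and 0.61 (limma interaction adjusted p 0.0348 and 0.00618). Of 13 NRF2 genes, 2 were higher and 0 lower (15.4%, median 0.79). They were Nfe2l2, which encodes NRF2 itself (1.44, limma adjusted p 0.00132), and its target Txnrd1 (1.90, adjusted p 0.00124), while Srxn1 changed by 0.91 (adjusted p 0.167), by 1.93 with and by -0.11 without Y-linked reads (interaction adjusted p 0.00590). Of 18 hypoxia genes, 4 were higher and 1 lower (27.8%, median 0.47). The count of 5 was 2 with no intensity trend and 3 without wild-type replicate 4 or mfn2-/- replicate 1, 2 or 3. Hif1a was 1 of the 4, beside Ldha, which reduces pyruvate to lactate (0.98, limma adjusted p 0.0129), Ndrg1 (1.19, adjusted p 0.00419) and the lactate exporter Slc16a3 (4.25, adjusted p 0.0250). Slc16a3 was at 0 in at least 1 wild-type library, so its fitted change depends on the pseudocount. Egln1, a prolyl hydroxylase that marks HIF1A for degradation, fell by 1.27 (adjusted p 0.0368), and Bhlhe40 changed by 0.49 (adjusted p 0.213). Bnip3 and Bnip3l, which are also known hypoxia genes, had adjusted p of 0.954 and 0.557 as given above.

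**Figure D3:**
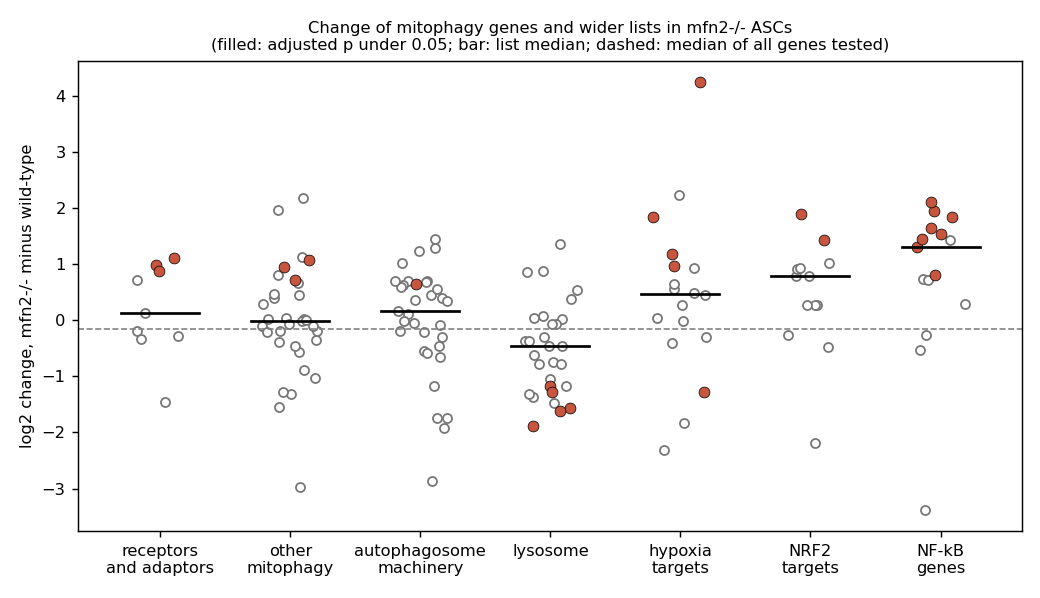
Log2 change (mfn2-/- minus wild-type, vertical axis) of the 9 receptors and adaptors and of the genes tested in 6 wider lists, 1 point per gene, filled where the limma adjusted p was under 0.05. The black bars are list medians and the dashed line is the median of all genes tested (-0.16); the receptors and adaptors center on 0.13, the lysosome genes on -0.46 and the NF-kB genes on 1.30.

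The genes with the profile most like that of each of the 2 members with the largest called changes were found by the root mean square difference of log2(normalized reads + 1) over the 8 libraries, after the wild-type mean of each gene had been subtracted. In the 7640 genes whose mean reached 50 normalized reads, those nearest to Map1lc3b were Tcp11l2 (difference 0.190), Vps37c (0.232) and Trim39 (0.233). Tcp11l2 rose by 1.28 on the log2 scale (limma adjusted p 0.0130), while Vps37c and Trim39 changed by 0.92 and 1.03 and did not pass (adjusted p 0.215 and 0.126). Those nearest to Sqstm1 were Tpm3 (0.123), Nop14 (0.135) and Hivep1 (0.141), with log2 changes of 1.01, 1.02 and 1.10 (limma adjusted p 0.0175, 0.0140 and 0.0290). The change with genotype is part of this difference, so the nearest genes had to change about as much as the gene they resemble. Their changes are therefore not separate results. The points share libraries and depth, and likeness of profile was not tested.

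The rises of Sqstm1, Tbk1 and Map1lc3b kept their direction in all 23 alternative fits, while their calls did not. For many of these fits the direction was fixed in advance. Other filters, a replicate block, the kind of library as a covariate and no intensity trend return the reported change itself. With the groups separate, leaving out libraries could not reverse the sign. Sqstm1 was called in 17, Tbk1 in 14 and Map1lc3b in 14 of the 23. Across these fits the log2 change ran from 0.80 to 1.32 for Sqstm1, from 0.78 to 1.11 for Tbk1 and from 0.87 to 1.31 for Map1lc3b. A further scaling set equal totals outside extracellular matrix and structural RNA genes. It left the listed fibroadipogenic and tenocyte markers, the collagen genes and some structural RNA genes out of the totals. Other genes that fell stayed in the totals, so it does not take out a shift of cell types. With this scaling the log2 change was 0.89 for Sqstm1, 0.78 for Tbk1 and 1.01 for Map1lc3b. Sqstm1 and Map1lc3b were called there and Tbk1 was not (limma adjusted p 0.0540).

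**Figure D4:**
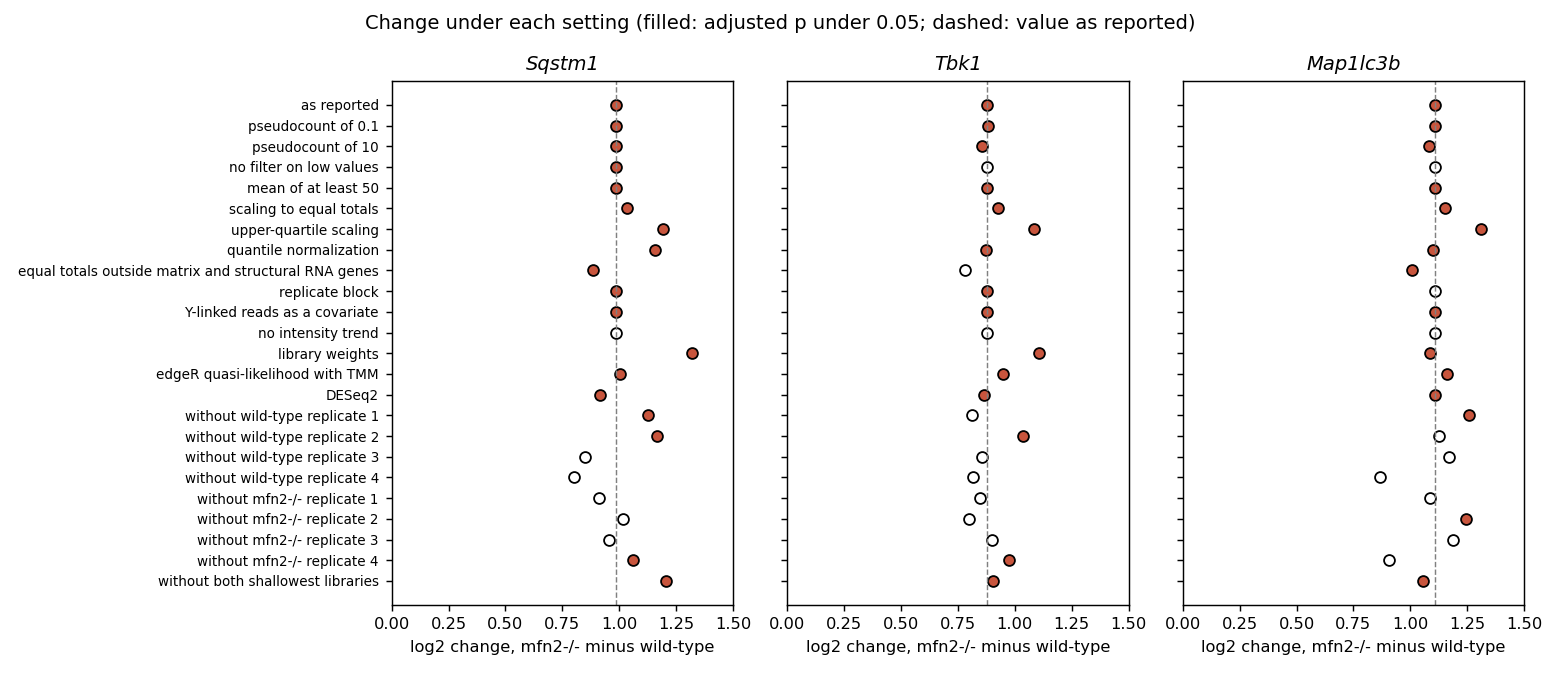
Log2 change (mfn2-/- minus wild-type, horizontal axis) of Sqstm1, Tbk1 and Map1lc3b in the reported fit and in 23 alternative fits, filled where the adjusted p was under 0.05, with a dashed line at the reported value. All points lie above 0, and open points cluster among the fits that leave out a single library.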

How the data were processed

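Total RNA of FACS-purified ASCs was made into stranded low-input libraries by the authors. The submitters' processing notes name Trim Galore, HISAT2, featureCounts, DESeq2 and the mm9 build; versions, annotation and strand setting are not given in the sources used here. The signal deposited for each gene is a read count that the authors had divided by 1 size factor per library, in 1 table of 18877 symbols (24 of them turned into dates by a spreadsheet). In every column 100% of values were whole multiples of 1 step (tolerance 0.01), so whole reads were recovered for depth and for count-based alternatives.

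Genes with a mean of at least 10 (11754) were tested with limma 3.58.1 (R 4.3.3) on log2(value + 1), which understates changes of low genes, with an intensity trend and Benjamini-Hochberg adjustment at 0.05. The interaction test added the kind of library (with or without reads of 4 Y-linked genes). Single values were compared by two-sided exact permutation over 70 arrangements. Alternatives were other pseudocounts (0.1, 10), other filters (none, a mean of 50), 4 other scalings, a replicate block, the kind of library as a covariate, no trend, library weights, edgeR 4.0.16 and DESeq2 1.42.0 on recovered reads, each library left out and, added after the data were seen, both shallowest libraries left out and the alternatives to the interaction test. The limma, edgeR and DESeq2 fits were run on simulated counts with known changes. Those counts held neither the split by Y-linked reads nor the shift of cell type markers. The simulation therefore checked the fitting steps and not the calls given here.

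Exon lengths and overlaps came from GENCODE M21 (GRCm38) and promoters from RefSeq GRCm38.p6, matched by symbol, since the table holds no coordinates. The text names the 9 genes, Mfn2 and Hif1a, from each wider list up to 6 called genes with a mean of at least 50 by size of change and the 2 most abundant, and the 3 nearest profiles; Zcchc14 and Mrnip were added for their overlap. The genes and lists were chosen with earlier results of these data known. A further gene of the group and a lysosome gene are not reported here.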

Additional observations from a re-analysis of the deposited data

Results flagged for a closer look

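Of the 90 groups of 4 values behind the 45 genes examined, 3 held a library far from the other 3 by Dixon's ratio, where chance gives about 4.5. Phb2 in mfn2-/- replicate 2, at 94.8 normalized reads, lay below the other mfn2-/- libraries. Zcchc14, which overlaps Map1lc3b, reached 1559 normalized reads in mfn2-/- replicate 4, the library in which Map1lc3b was also highest. Ldha in wild-type replicate 4 was 337 normalized reads, below the other wild-type libraries.

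For 9 of these genes the change differed between libraries with and without Y-linked reads by the limma interaction test, and each of the 9 was smaller in the libraries without. Genes of the wider lists that the naming rule left out include the opposite case, since Pgk1, singled out after its values were seen, changed by -1.61 with and 2.74 without Y-linked reads (difference 4.34, adjusted p 0.0148). The difference of log2 changes (without minus with) was -1.10 for Sqstm1 (adjusted p 0.0324), -1.67 for Mcl1 (0.00452), -1.18 for Bhlhe40 (0.0420), -2.04 for Srxn1 (0.00590), -1.49 for Nfkb1 (0.0348), -1.27 for Tnfaip3 (0.0173) and -2.06 for Birc3 (0.00618). It was -1.01 for Tpm3 (0.0398) and -1.21 for Hivep1 (0.0410), which were named because their profiles resemble that of Sqstm1 and so are not separate evidence. In each group the kind of library coincides with a pair of replicate numbers, so what sets the pairs apart cannot be told apart from the Y-linked reads.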

How the results depend on the processing

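Of the 3 genes called, 3 kept their direction in all 23 alternatives, but for many of these the direction was fixed in advance, as given above. The count of 3 became 1 with no filter on low values and 0 with no intensity trend, and 0 to 2 when a single library was left out (0 without wild-type replicate 3 or 4 or mfn2-/- replicate 1 or 3). The 1217 genes called became 633 with no trend, 3037 with library weights and 670 to 1307 with a library left out, while edgeR called 1158 and DESeq2 1738. With no trend, library weights and a library left out, the 24 called genes of the wider lists became 11, 51 and 12 to 24. Calls that were higher made up 38.5% of the total, 57.5% with upper-quartile scaling and 17.9% with no trend, and the median change of all genes moved from -0.16 to 0.05 with upper-quartile scaling and 0.08 with quantile normalization. The difference for Sqstm1 between kinds of library lost its call with no trend (-1.10, limma adjusted p 0.497), quantile normalization (-0.43, 0.461) and edgeR (-1.16, 0.0583). For these the cause was not tested.

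Bnip3, Fundc1 and Pink1 changed sign. Pink1 became 0.0095 with upper-quartile scaling. Bnip3 became -0.21 with library weights, -0.056 with edgeR and -0.14 with DESeq2, and ran from -0.44 to 0.70 with a library left out. Fundc1 became 0.28 without both shallowest libraries. None of these values passed a threshold. With a mean of at least 50, Bnip3 gave no value. Fundc1 had 0 reads in mfn2-/- replicate 4, and the part of depth in these changes was not tested.

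Same-numbered libraries did not deviate together (correlations -0.035, -0.053, 0.038 and -0.11). Each such pair holds 1 library with and 1 without Y-linked reads, and that split was not removed first. These correlations therefore cannot decide whether the numbers pair the libraries. A replicate block called 1043 genes and 2 of the 9 genes, and Map1lc3b had an adjusted p of 0.0581.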
